A study of Mus musculus with 12 samples.

Results

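The genes described here are 10 genes of bile acid synthesis, uptake and export in mouse liver, chosen by name out of the 21936 genes counted: Cyp7a1, Cyp8b1, Cyp27a1, Cyp7b1, Slc27a5, Baat, Slc10a1, Abcb11, Nr1h4 and Nr0b2. Another 37 genes of the same pathway, in lists of further synthesis enzymes, transporters and regulators, were followed beside them. All groups were male C57BL/6J mice (C57BL/6 in the labels), 6 weeks old on arrival. After a week of adaptive feeding they were given carbon tetrachloride (CCl4), a hepatotoxin that kills pericentral hepatocytes and causes fibrosis. It was diluted in olive oil and injected intraperitoneally at 1 mL/kg, 2 times per week for 8 weeks. The liver fibrosis group (LFG) was sacrificed after that exposure. In the regression group (REG) tail vein injections of 200 µL PBS followed 2 times per week for 4 weeks, and the hADMSCs-Exo group was given 250 µg of exosomes from human adipose mesenchymal stem cells in the same volume on the same schedule. Every group, LFG included, was thus given CCl4 by the labels and the study's methods, and no group without CCl4 was analysed here. Each group had 3 libraries of whole-liver RNA. The columns named MSC_E were taken as the hADMSCs-Exo libraries, with E read as exosome. No label settles this reading, and no column was matched to the hADMSCs group, which was not analysed here. If the MSC_E columns belong to hADMSCs instead, every value given for hADMSCs-Exo is a value of that group.

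Bile acids are made from cholesterol in hepatocytes. The classic route opens with Cyp7a1, its rate-limiting hydroxylase, and Cyp8b1 then sets how much cholic acid is formed. The alternative route opens with Cyp27a1 and continues through Cyp7b1. Slc27a5 (bile acyl-CoA ligase) and Baat join the finished bile acid to taurine or glycine, Slc10a1 (NTCP) takes bile acids up from portal blood, and Abcb11 (the bile salt export pump) secretes them into bile. The nuclear receptor Nr1h4 (FXR) senses bile acids, induces Nr0b2 (SHP) and Abcb11, and through Nr0b2 restrains Cyp7a1 and Cyp8b1.

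Of the members, 6 had promoter windows in the RefSeq table of GRCm38.p6 and 4 (Cyp7a1, Cyp7b1, Baat and Slc27a5) had none. The windows, from 250 bases before to 50 bases after a start, were searched on both strands for the inverted repeat that FXR is known to bind, spelled AGGTCANTGACCT, which contains the half-site AGGTCA on each strand. The Abcb11 window is shown because it was the member window that came within 2 mismatches of this repeat and because the Abcb11 levels of hADMSCs-Exo and REG did not overlap. Its 250 bases before the start, at chr2:69342617-69342866 on the minus strand, are given with both near matches in capitals.

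Abcb11: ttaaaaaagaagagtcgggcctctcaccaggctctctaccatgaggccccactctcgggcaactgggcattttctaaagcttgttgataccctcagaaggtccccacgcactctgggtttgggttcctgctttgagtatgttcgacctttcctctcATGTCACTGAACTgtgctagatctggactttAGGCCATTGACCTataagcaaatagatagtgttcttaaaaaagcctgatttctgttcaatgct

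The near match closer to the start, 63 to 51 bases before it, had 1 mismatch, and the one 94 to 82 bases before it had 2. Of all 32851 windows, 3 (0.00913%) held the repeat exactly, 27 (0.0822%) held it with at most 1 mismatch and 374 (1.14%) with at most 2. The half-site itself stood in the windows of Abcb11 (inside the near match), Nr1h4 and Slc10a1, against 16.3% of all windows. The letters TCAAGGNCA, searched for NR5A2, a receptor known to drive Cyp7a1 and Cyp8b1, were in 0 of the member windows exactly and in those of Cyp8b1, Nr0b2 and Nr1h4 with 1 mismatch, which 24.4% of all windows also held. These matches describe letters only and say nothing about binding.

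Levels are given as CPM, counts relative to the library total scaled by TMM over the 9 libraries. To compare genes with each other, they are given as the authors' FPKM, which divides by gene length and by the library total without TMM. Total counts ran from 13837445 to 19840917 per library. LFG 3 stood apart from its group: its log2 CPM correlated across genes, which are not independent replicates, by 0.834 with LFG 1 and 0.874 with LFG 2, whereas every other pair within a group lay between 0.959 and 0.981. The summed CPM of 10 stellate cell and myofibroblast markers was 1474 in LFG 1, 988 in LFG 2 and 61.2 in LFG 3, that of 8 macrophage markers was 1278, 973 and 129.8, and that of 8 pericentral hepatocyte markers, genes of the zone that CCl4 injures, was 1716, 4056 and 18366. The markers of LFG 3 thus go against its label as a fibrotic liver, and LFG 3 stands throughout for the library labelled so. The members' log2 fold changes against LFG are therefore given with and without LFG 3. RNA of whole tissue was measured, so fewer hepatocytes and less RNA per hepatocyte cannot be told apart. The labels do not say that replicates are separate animals, and p-values then measure only the spread between these samples.

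On the FPKM scale the members kept a rough order. Slc27a5 ranked 1 of the 10 in 8 of the 9 libraries, with FPKM from 136 in LFG 1 to 519 in REG 2, and in REG 3 it came after Slc10a1 (454 against 475 FPKM). Slc10a1 ranked 1 to 4, with 89.0 to 475 FPKM, and Cyp27a1 ranked 2 to 4, with 79.1 to 299 FPKM. Baat, Nr1h4 and Abcb11 followed, with ranges of 96.3 to 139.7, 41.1 to 88.0 and 37.2 to 73.1 FPKM. Cyp7a1 held 13.9 to 82.0 FPKM, Cyp8b1 10.2 to 101 and Nr0b2 11.7 to 53.4, so these neighbours overlapped and changed places from library to library. Cyp7b1 ranked 8 to 10 in 8 libraries with 5.11 to 19.4 FPKM, but ranked 4 in LFG 3 with 170 FPKM.

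**Figure D1:**
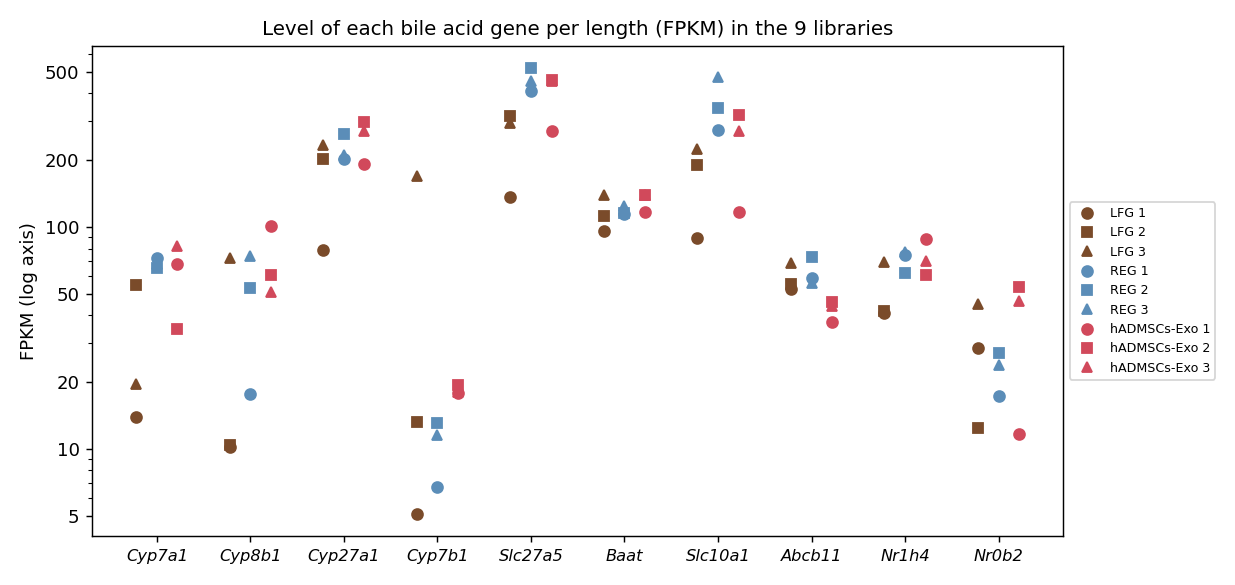
FPKM (log axis) of the 10 bile acid genes in each of the 9 libraries, coloured by group, with the marker shape giving the replicate. Slc27a5 stood highest in every library but REG 3, and Cyp7b1 in LFG 3, at 170 FPKM, stood far above its other 8 values of 5.11 to 19.4.

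Among the synthesis enzymes, Cyp7a1 was lower in every LFG library than in every REG library. Cyp7a1 (ENSMUSG00000028240, GRCm38 chromosome 4, 6265612 to 6275633, minus strand) had 42.2, 211 and 102 CPM in LFG 1 to 3, 310.0, 297 and 300.5 CPM in REG, and 277, 144 and 366 CPM in hADMSCs-Exo. The REG libraries lay close together and all above LFG, while hADMSCs-Exo spread on both sides of REG and overlapped LFG. Cyp7a1 was higher in REG than in LFG by 1.37 on the log2 scale (95% interval 0.11 to 2.63, edgeR's adjusted p = 0.414), and its difference between hADMSCs-Exo and REG was -0.21 (-0.89 to 0.47, adjusted p = 0.832). Against LFG, hADMSCs-Exo differed by 1.14 (-0.30 to 2.58, adjusted p = 0.813). Without LFG 3 the values against LFG were 1.31 for REG (adjusted p = 0.137) and 1.07 for hADMSCs-Exo (adjusted p = 0.321).

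Cyp8b1 (ENSMUSG00000050445, chromosome 9, 121914356 to 121916305, minus strand) separated LFG 3 from LFG 1 and LFG 2. It had 14.5, 18.6 and 176 CPM in LFG, 35.2, 112 and 153 CPM in REG, and 192, 117 and 107 CPM in hADMSCs-Exo. LFG 1 and LFG 2 were the lowest of all 9 libraries and LFG 3 was among the highest. With all libraries the log2 fold change against LFG was 1.01 for hADMSCs-Exo (-1.20 to 3.21, edgeR's adjusted p = 0.896) and 0.52 for REG (-1.88 to 2.92, adjusted p = 0.865). Without LFG 3 these became 3.08 (2.34 to 3.83, adjusted p = 0.0104) and 2.64 (1.32 to 3.96, adjusted p = 0.0263). Between hADMSCs-Exo and REG it was 0.48 (-0.58 to 1.54, adjusted p = 0.743), and 0.077 without REG 1. Without LFG 1 the values against LFG were 0.52 for hADMSCs-Exo and 0.041 for REG.

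The ratio of Cyp8b1 to Cyp7a1 within a library, on the FPKM scale, was 0.734, 0.189 and 3.70 in LFG, 0.243, 0.808 and 1.09 in REG, and 1.49, 1.75 and 0.623 in hADMSCs-Exo. The groups overlapped in this ratio, and LFG held both its lowest and its highest value.

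Cyp27a1 (ENSMUSG00000026170, chromosome 1, 74713574 to 74737892, plus strand) had 125, 406 and 630.0 CPM in LFG, 452, 616 and 483 CPM in REG, and 409, 644 and 630.0 CPM in hADMSCs-Exo. Only LFG 1 was far below the rest, and the groups overlapped in all 3 comparisons. Its log2 fold change was 0.12 for hADMSCs-Exo against REG (-0.37 to 0.60, edgeR's adjusted p = 0.868), 0.54 against LFG (-0.77 to 1.84, adjusted p = 0.906) and 0.43 for REG against LFG (-0.85 to 1.70, adjusted p = 0.779). Without LFG 3 the values against LFG were 1.10 for hADMSCs-Exo (-0.05 to 2.24, adjusted p = 0.190) and 1.01 for REG (-0.05 to 2.07, adjusted p = 0.149), and without LFG 1 they were 0.12 and 0.0059.

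Cyp7b1 (ENSMUSG00000039519, chromosome 3, 18071950 to 18243338, minus strand) was, of the 4 synthesis enzymes among the members, the one whose hADMSCs-Exo and REG libraries did not overlap. It had 8.05, 26.4 and 456 CPM in LFG, 15.0, 30.9 and 26.5 CPM in REG, and 37.8, 41.7 and 41.9 CPM in hADMSCs-Exo. Every hADMSCs-Exo library lay above every REG library, and LFG 3 exceeded all other libraries. Cyp7b1 was higher in hADMSCs-Exo than in REG by 0.75 on the log2 scale (standard error 0.24, 95% interval 0.20 to 1.29, 1.68-fold), but it did not pass the adjustment over all genes (edgeR's adjusted p = 0.409). Against LFG its direction turned with LFG 3. The log2 fold change was -2.0 for hADMSCs-Exo (-5.07 to 1.06, adjusted p = 0.850) and -2.76 for REG (-5.98 to 0.46, adjusted p = 0.486), and without LFG 3 it was 1.25 (0.23 to 2.28, adjusted p = 0.119) and 0.54 (-0.60 to 1.68, adjusted p = 0.451). With the replicate number as a block the value for hADMSCs-Exo was 0.031. Its locus also holds the small nuclear RNA gene Gm23686 on the same strand, outside the exons of Cyp7b1.

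**Figure D2:**
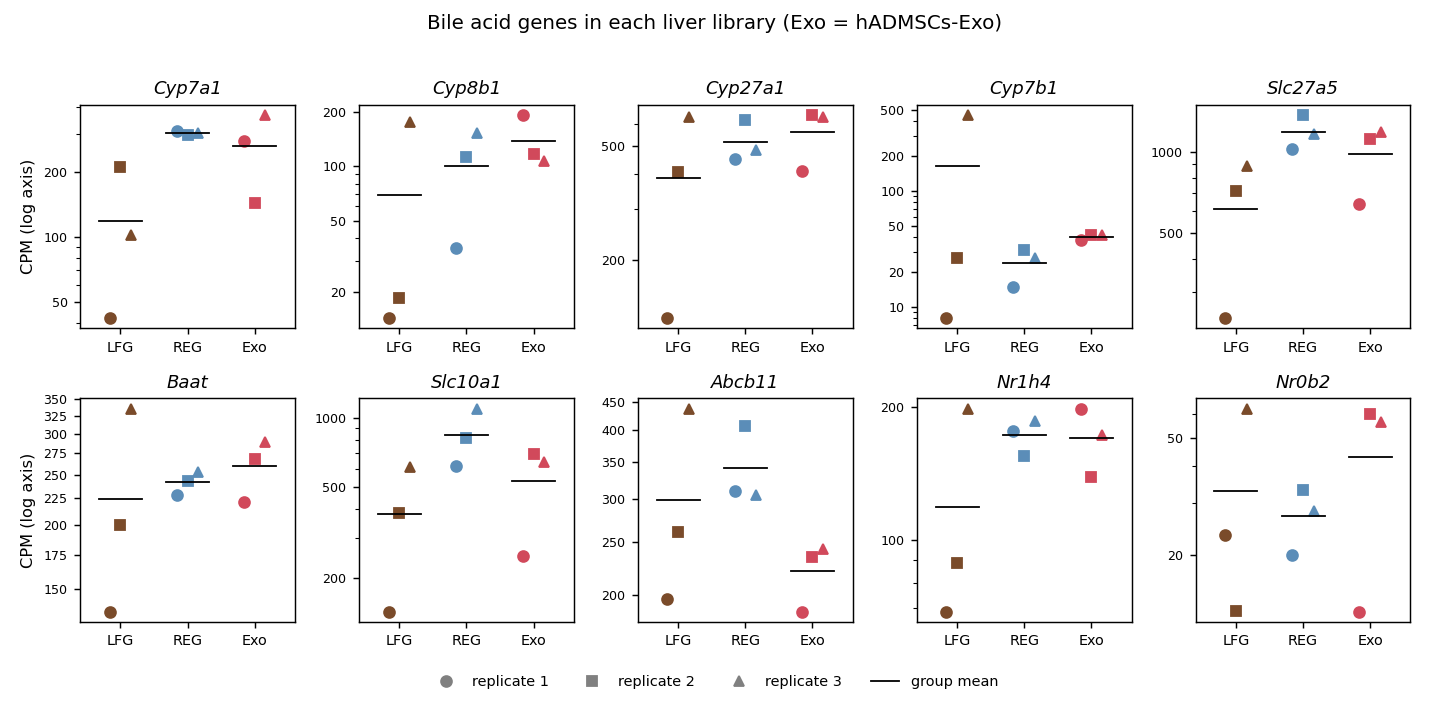
CPM (log axis, its own range in each panel) of each bile acid gene in the 3 libraries of LFG, REG and hADMSCs-Exo, with the marker shape giving the replicate and a line at the group mean. Cyp7b1 was higher and Abcb11 lower in every hADMSCs-Exo library than in every REG library. For all 10 genes the SD of log2 CPM was larger in LFG than in REG. The spread over all genes was also larger with LFG: edgeR's common coefficient of variation was 0.40 for REG against LFG and 0.24 for hADMSCs-Exo against REG.

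The conjugation enzymes were expressed at a high level in every group. Slc27a5 (ENSMUSG00000030382, chromosome 7, 12988346 to 12998192, minus strand) had 241, 713 and 887 CPM in LFG, 1026, 1372 and 1167 CPM in REG, and 642, 1112 and 1188 CPM in hADMSCs-Exo. All REG libraries lay above all LFG libraries, and hADMSCs-Exo 1 fell among the LFG values. The log2 fold change of Slc27a5 was 0.96 for REG against LFG (-0.16 to 2.09, edgeR's adjusted p = 0.486), 0.67 for hADMSCs-Exo against LFG (-0.52 to 1.87, adjusted p = 0.868) and -0.28 for hADMSCs-Exo against REG (-0.84 to 0.29, adjusted p = 0.721). Without LFG 3 it was 1.36 for REG against LFG (adjusted p = 0.0687) and 1.06 for hADMSCs-Exo against LFG (adjusted p = 0.210).

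Baat (ENSMUSG00000039653, chromosome 4, 49489422 to 49506557, minus strand) had 136, 200.2 and 336 CPM in LFG, 228, 243 and 253 CPM in REG, and 221, 268 and 289 CPM in hADMSCs-Exo. LFG contained both the lowest and the highest library. The differences were 0.10 between hADMSCs-Exo and REG (-0.23 to 0.44, edgeR's adjusted p = 0.832), 0.21 between hADMSCs-Exo and LFG (-0.61 to 1.03, adjusted p = 0.948) and 0.12 between REG and LFG (-0.70 to 0.93, adjusted p = 0.917) on the log2 scale. Leaving out LFG 3 gave 0.64 for hADMSCs-Exo (adjusted p = 0.140) and 0.57 for REG (adjusted p = 0.103) against LFG.

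Of the transporters, Slc10a1 overlapped between hADMSCs-Exo and REG, whereas Abcb11 did not. Slc10a1 (ENSMUSG00000021135, chromosome 12, 80953183 to 80968705, minus strand) had 142, 383 and 610.4 CPM in LFG, 617, 821 and 1100.4 CPM in REG, and 249, 697 and 640.2 CPM in hADMSCs-Exo. REG lay above LFG in every library, and hADMSCs-Exo overlapped both groups, with hADMSCs-Exo 1 well below its replicates. The log2 fold change was 1.17 for REG against LFG (-0.09 to 2.42, edgeR's adjusted p = 0.464), and 1.73 without LFG 3 (0.68 to 2.79, adjusted p = 0.0412). For hADMSCs-Exo it was -0.68 against REG (-1.54 to 0.19, adjusted p = 0.578) and 0.48 against LFG (-0.92 to 1.88, adjusted p = 0.920), the latter being 1.03 without LFG 3 (adjusted p = 0.261). Without LFG 1 the values against LFG were 0.091 for hADMSCs-Exo and 0.78 for REG.

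Abcb11 (ENSMUSG00000027048, chromosome 2, 69238282 to 69342616, minus strand) had 197, 261 and 438 CPM in LFG, 309.8, 408 and 304 CPM in REG, and 187, 235 and 243 CPM in hADMSCs-Exo. All hADMSCs-Exo libraries lay below all REG libraries, and LFG, from 197 to 438 CPM, overlapped both. Abcb11 was lower in hADMSCs-Exo than in REG, by -0.62 on the log2 scale (standard error 0.17, 95% interval -1.01 to -0.22), without passing the adjustment over all genes (edgeR's adjusted p = 0.407). Against LFG the difference was -0.43 for hADMSCs-Exo (-1.21 to 0.34, adjusted p = 0.868) and 0.20 for REG (-0.60 to 1.00, adjusted p = 0.843), and without LFG 3 it was -0.03 (adjusted p = 0.938) and 0.62 (adjusted p = 0.101). An antisense gene, Gm13613, and a pseudogene, Gm13614, overlap exons of Abcb11 on the other strand, and because the strand setting of the counting is not given in the sources used here, their reads cannot be told apart from those of Abcb11.

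The bile acid receptor had similar levels in REG and hADMSCs-Exo. Nr1h4 (ENSMUSG00000047638, chromosome 10, 89454234 to 89533585, minus strand) had 68.8, 88.9 and 199 CPM in LFG, 177, 155 and 186 CPM in REG, and 198, 139 and 173 CPM in hADMSCs-Exo. LFG 1 and LFG 2 were the lowest libraries, and LFG 3 was level with hADMSCs-Exo 1 at the top. By FPKM, LFG 3 (69.7) lay below hADMSCs-Exo 1 (88.0). The log2 fold change was -0.03 for hADMSCs-Exo against REG (-0.40 to 0.35, edgeR's adjusted p = 0.970). Against LFG it was 0.52 for hADMSCs-Exo (-0.45 to 1.48, adjusted p = 0.873) and 0.55 for REG (-0.42 to 1.52, adjusted p = 0.630), and without LFG 3 it was 1.12 (0.59 to 1.65, adjusted p = 0.0348) and 1.18 (0.72 to 1.63, adjusted p = 0.0159).

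Nr0b2 (ENSMUSG00000037583, chromosome 4, 133553376 to 133556536, plus strand) overlapped between all groups. It had 23.4, 13.0 and 62.7 CPM in LFG, 20.1, 33.4 and 28.4 CPM in REG, and 12.9, 60.0 and 56.4 CPM in hADMSCs-Exo. The lowest hADMSCs-Exo library was the lowest of all 9, and the other 2 were above every REG library. Its log2 fold change was 0.66 for hADMSCs-Exo against REG (-0.46 to 1.79, edgeR's adjusted p = 0.668, with 0.35 without hADMSCs-Exo 2 and 1.09 without hADMSCs-Exo 1), 0.39 against LFG (-1.32 to 2.09, adjusted p = 0.954) and -0.27 for REG against LFG (-1.58 to 1.04, adjusted p = 0.874). Without LFG 3 the value against LFG was 1.25 for hADMSCs-Exo (-0.18 to 2.69, adjusted p = 0.225) and 0.62 for REG (-0.10 to 1.35, adjusted p = 0.182). Without LFG 2 it was 0.0055 for hADMSCs-Exo and -0.66 for REG.

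The comparison of hADMSCs-Exo with REG, which asks what exosomes added to spontaneous regression, called 0 of the 10 members by edgeR, where a call needs an adjusted p under 0.05 together with a log2 fold change of 1 or more in either direction, and 0.00811% of the 12337 genes tested were called. DESeq2 and limma's voom also called 0. An unadjusted p under 0.05 was reached by 2 members, Cyp7b1 (higher) and Abcb11 (lower), against 10.0% of all genes, and the same 2 were the members whose groups did not overlap, against 15.5% of all genes. Of the 10, 5 had a positive and 5 a negative log2 fold change, with a median of 0.04 beside 0.01 over all genes. Groups of 3 libraries that do not overlap have p = 0.1 in a two-sided exact permutation test by construction, the smallest value it can give, so this test adds nothing to the separation. In one fit of all 9 libraries, whose spread includes LFG, 0 members had an unadjusted p under 0.05, against 3.79% of all genes.

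REG against LFG, which follows the liver over the weeks after CCl4 was stopped, called 0 members, as did hADMSCs-Exo against LFG. Over all genes 0% were called in REG against LFG (12517 tested) and 0% in hADMSCs-Exo against LFG (12489 tested). DESeq2 also called 0 members in both, and voom with quality weights called 0 in hADMSCs-Exo against LFG and 3 in REG against LFG (Cyp8b1, Slc27a5 and Slc10a1, all higher in REG), where it called 10.3% of all genes. An unadjusted p under 0.05 was reached by 1 member in REG against LFG, Cyp7a1, against 11.3% of all genes (by 0 without any one of REG 1, REG 2 and REG 3), and by 0 in hADMSCs-Exo against LFG (by 1, Slc27a5, with the replicate number as a block), against 5.98%. The groups did not overlap for 3 members in REG against LFG (Cyp7a1, Slc27a5 and Slc10a1, all higher in REG), against 19.0% of all genes, and for 0 in hADMSCs-Exo against LFG, against 12.3%. These comparisons share the LFG libraries, and in each 8 of the 10 members had a positive log2 fold change, with medians of 0.47 for REG and 0.50 for hADMSCs-Exo, where the medians over all genes were -0.07 and -0.06.

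Leaving out LFG 3 changed these counts. With LFG 1 and LFG 2 alone, REG called 3 members (Cyp8b1, Slc10a1 and Nr1h4, all higher in REG), against 10.7% of 12948 genes, and hADMSCs-Exo called 2 (Cyp8b1 and Nr1h4, both higher), against 5.97% of 12955 genes. An unadjusted p under 0.05 was then reached by 6 members in REG against LFG, with 37.3% of all genes, and by 4 in hADMSCs-Exo against LFG, with 28.5%. The groups were apart for 8 members (55.6% of all genes) and for 5 members (48.8%). Leaving out LFG 1 instead lowered the log2 fold change of all 10 members in both comparisons, and 0 were called. Without LFG 3 all 10 members were higher in REG and 9 in hADMSCs-Exo, with Abcb11 at -0.03 (-0.56 to 0.49, edgeR's adjusted p = 0.938). Of 8 hepatocyte markers 7 were also higher in each, with medians of 0.79 (REG) and 0.57 (hADMSCs-Exo) beside -0.005 and 0.004 over all genes. All 8 pericentral markers were higher in both. Of the 37 further pathway genes, edgeR then called Cyp46a1 (higher) and Abcc4 (lower) in REG and Nr1i3 (higher) in hADMSCs-Exo, Cyp46a1 and Nr1i3 being named after their values were seen.

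**Figure D3:**
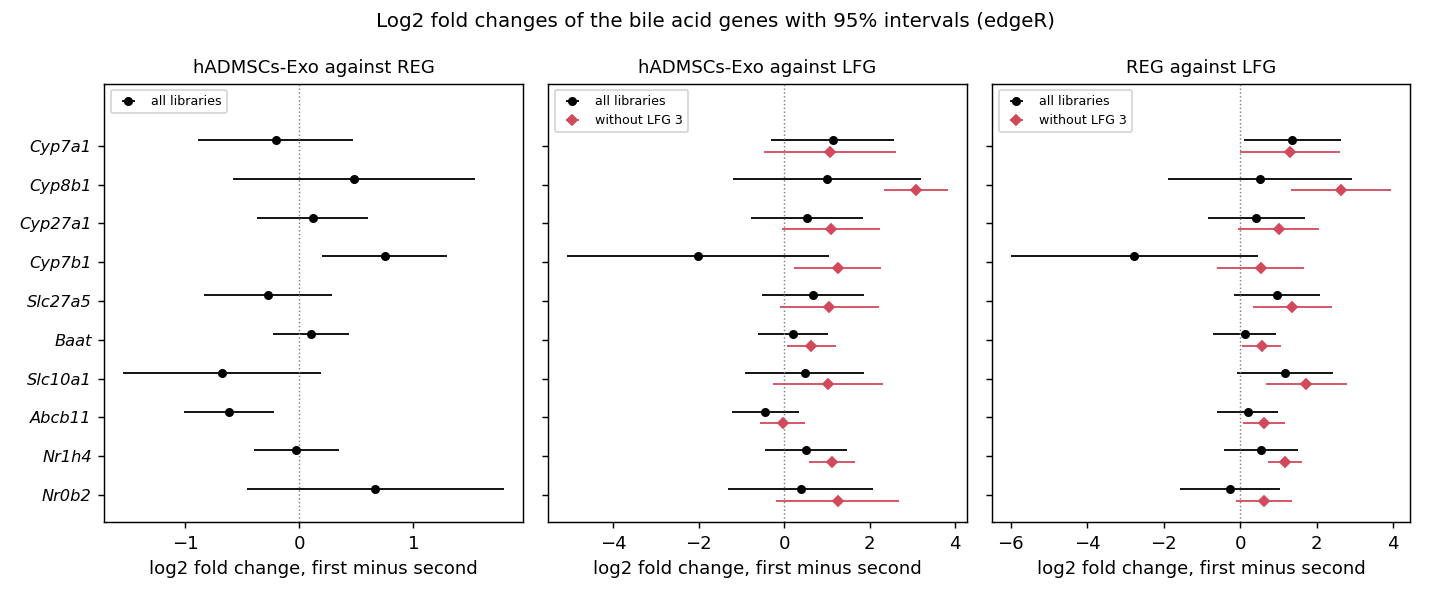
Log2 fold change of each bile acid gene from edgeR, as first group minus second, with its 95% interval, in the 3 comparisons. Black circles use all libraries and red diamonds leave out LFG 3, without which Cyp7b1 moved from -2.0 to 1.25 (hADMSCs-Exo) and from -2.76 to 0.54 (REG) against LFG.

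The libraries in which the members were low differed from the rest in the markers of other cells too. In LFG 1, where 8 of the 10 members had their lowest CPM, the stellate sum was the highest of all libraries. The hepatocyte marker sum was 79048 CPM there, against 130950 in LFG 2 and 145848 in LFG 3. LFG 3, where 5 members had their highest CPM, had the lowest stellate and macrophage sums and the highest pericentral sum. By FPKM, without the TMM factors (1.38 in LFG 1 and 0.808 in LFG 3), Abcb11, Nr1h4 and Nr0b2 were highest elsewhere. LFG 3 had 68.7, 69.7 and 44.8 FPKM of these, and REG 2, hADMSCs-Exo 1 and hADMSCs-Exo 2 had, respectively, 73.1, 88.0 and 53.4. Between hADMSCs-Exo and REG, the stellate sum was 83.7 to 228 CPM against 215 to 379.7 CPM, and 9 of 9 tested stellate markers had a negative log2 fold change, 7 of them with an unadjusted p under 0.05. Of 10 stellate markers, Tagln had 0 counts in 5 of the 9 libraries and was not tested. The hepatocyte marker sum was 112981 to 129739.5 CPM in hADMSCs-Exo and 158412 to 166008 CPM in REG, without overlap, a sum made up mostly of Alb (means of 99731 and 134787 CPM). Of the 8 hepatocyte markers 7 were negative, 1 of them at an unadjusted p under 0.05, with a median log2 fold change of -0.18 and Tat at 0.76. All 7 sinusoidal endothelial markers were negative (median -0.77), 0 of them at an unadjusted p under 0.05, with sums of 67.1 to 221 CPM against 109 to 305 CPM. The pericentral sum was 9434 to 13867 CPM in hADMSCs-Exo and 7303 to 9048 CPM in REG, with 4 of 8 genes higher at an unadjusted p under 0.05. The part of these cell markers in the members' values was not tested.

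**Figure D4:**
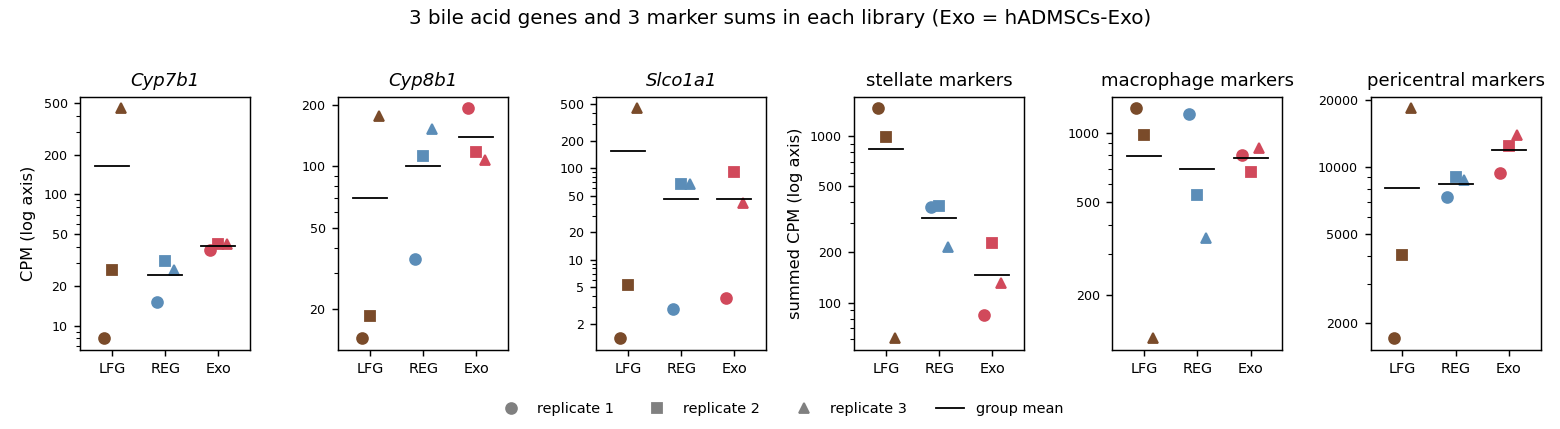
CPM of Cyp7b1, Cyp8b1 and Slco1a1 and summed CPM of stellate, macrophage and pericentral marker genes (log axes) in each library, with the marker shape giving the replicate and a line at the group mean. LFG 3 had the highest Cyp7b1 (456 CPM), Slco1a1 (453 CPM) and pericentral sum (18366 CPM) and the lowest stellate sum (61.2 CPM).

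Cyp7a1 is also known as a gene with a strong daily rhythm, driven in part by the clock output factor Dbp, and the time of day of sampling is not given in the sources used here. Dbp had 23.7, 21.8 and 149 CPM in LFG, 188, 172 and 138 CPM in REG, and 128, 44.2 and 62.6 CPM in hADMSCs-Exo, so every hADMSCs-Exo library lay below every REG library (log2 fold change -1.09, -1.90 to -0.28, edgeR's adjusted p = 0.410). Nr1d1, a clock repressor, had 31.9, 17.4 and 46.9 CPM in LFG, 67.5, 53.2 and 25.6 CPM in REG, and 33.0, 15.4 and 10.3 CPM in hADMSCs-Exo. Its log2 fold change between hADMSCs-Exo and REG was -1.32 (-2.39 to -0.24, adjusted p = 0.431). Arntl, the core activator, had 6.66, 6.21 and 0 CPM in LFG, 0.370, 1.43 and 0.372 CPM in REG, and 1.07, 4.40 and 1.83 CPM in hADMSCs-Exo, with a log2 fold change of 1.74 (0.14 to 3.33, adjusted p = 0.473). Of 12 clock genes tested, 4 had an unadjusted p under 0.05 between hADMSCs-Exo and REG, 2 in each direction, and 0 passed the adjustment. The part of the clock in the values of Cyp7a1 was not tested.

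**Figure D5:**
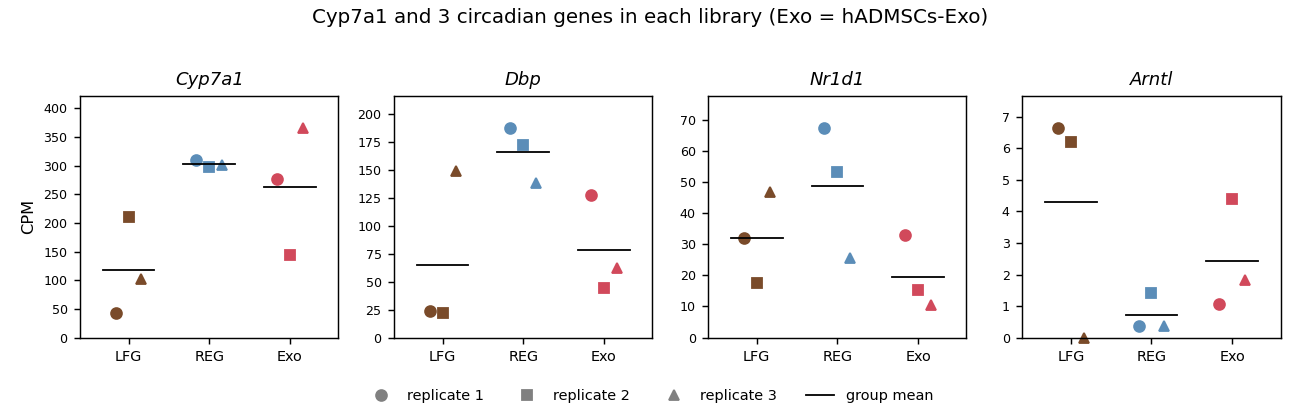
CPM (linear axis from 0) of Cyp7a1 and of the circadian genes Dbp, Nr1d1 and Arntl in each library, with the marker shape giving the replicate and a line at the group mean. Dbp was lower in all hADMSCs-Exo libraries (44.2 to 128 CPM) than in all REG libraries (138 to 188 CPM), whereas Cyp7a1 overlapped between these groups.

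Of the 37 further genes of the pathway, 30 were expressed enough to be tested. Between hADMSCs-Exo and REG, 18 had a positive and 12 a negative log2 fold change, 6 were higher and 1 lower at an unadjusted p under 0.05 (10.0% of all genes), and 0 were called by edgeR, DESeq2 or voom. The 7 genes at an unadjusted p under 0.05 became 4 without hADMSCs-Exo 2 (8.59% of all genes), 3 without hADMSCs-Exo 3 (9.57%) and 1 without REG 2 (4.92%). Of 11 transporters 10 were positive, with a median of 0.41 beside 0.01 over all genes, but 3 of the 10 were near 0 and turned sign under other settings (Slco1a1 0.0095, Slco1b2 0.08 and Atp8b1 0.07), and both member transporters, Slc10a1 and Abcb11, were negative. Among 10 synthesis enzymes 4 were positive, with a median of -0.05, and the groups did not overlap for 1, Acot8 (named after its values were seen). In REG against LFG, 15 were positive and 15 negative, and in hADMSCs-Exo against LFG 17 were positive and 13 negative, with 2 and 0 genes at an unadjusted p under 0.05, beside the shares of all genes given above (11.3% and 5.98%). Without LFG 3 these became 20 positive and 10 negative, and 23 positive and 7 negative, with 11 genes each at an unadjusted p under 0.05, beside 37.3% and 28.5% of all genes. With all libraries, groups did not overlap for 3 of the 30 higher and 1 lower in hADMSCs-Exo against REG, beside 15.5% of all genes. In REG against LFG this held for 1 higher (Klb) and 1 lower (Abcb4), beside 19.0% of all genes. In hADMSCs-Exo against LFG it held for 1 lower (Atp8b1), beside 12.3%.

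Among these transporters, Abcc3, which sends bile acid conjugates back to blood, had 294, 199 and 261 CPM in REG and 538, 356 and 294 CPM in hADMSCs-Exo (log2 fold change 0.65, 0.07 to 1.23, edgeR's adjusted p = 0.463). Its groups overlapped, the highest REG library being level with the lowest hADMSCs-Exo library. Abcb4, the phospholipid exporter that protects the bile duct from bile salts, had 275, 235 and 320.4 CPM in LFG, 177, 135 and 192 CPM in REG, and 289, 188 and 239 CPM in hADMSCs-Exo. It was lower in all REG than in all LFG libraries (-0.71, -1.28 to -0.14, adjusted p = 0.391) and differed by 0.50 between hADMSCs-Exo and REG (0.04 to 0.97, adjusted p = 0.479). The canalicular exporter Abcc2 differed by 0.48 between hADMSCs-Exo and REG (-0.05 to 1.01, adjusted p = 0.531) and by -0.52 between REG and LFG (-1.15 to 0.11, adjusted p = 0.498). Abcc4, another basolateral exporter, had 7.33, 40.9 and 0.805 CPM in LFG, 6.84, 2.64 and 3.82 CPM in REG, and 8.17, 8.68 and 4.92 CPM in hADMSCs-Exo, so LFG 2 stood alone.

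The uptake carriers of the Slco family behaved differently from each other. Slco1b2 had 437 to 898 CPM in LFG, 694 to 991 CPM in REG and 714 to 1001 CPM in hADMSCs-Exo, and it differed by 0.08 between hADMSCs-Exo and REG (-0.36 to 0.53, edgeR's adjusted p = 0.907). Slco1a1 had 1.39, 5.31 and 453 CPM in LFG, 2.90, 66.2 and 67.5 CPM in REG, and 3.79, 91.2 and 41.5 CPM in hADMSCs-Exo. Its lowest library in each group was replicate 1, and LFG 3 exceeded all others, as it did for Cyp7b1. Atp8b1, a lipid flippase of the canaliculus, was lower in all hADMSCs-Exo than in all LFG libraries, with 23.2 to 32.5 CPM against 33.9 to 36.1 CPM (-0.28, -0.73 to 0.17, adjusted p = 0.859).

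Of the other synthesis enzymes, Akr1d1, a steroid reductase of the pathway, had 57.4, 199 and 164 CPM in LFG, 197, 226 and 252 CPM in REG, and 139, 296 and 274 CPM in hADMSCs-Exo. It differed by 0.69 between REG and LFG (-0.34 to 1.73, edgeR's adjusted p = 0.574) and by 0.75 between hADMSCs-Exo and LFG (-0.43 to 1.93, adjusted p = 0.857). Without LFG 1 these differences were 0.32 and 0.38. Cyp2c70, which forms the mouse muricholic acids, differed by -0.35 between hADMSCs-Exo and REG (-1.21 to 0.50, adjusted p = 0.769). This was -0.031 without hADMSCs-Exo 1 and -0.67 without hADMSCs-Exo 3. Hsd3b7, a further enzyme of the pathway, had 0 counts in all 9 libraries. Counting error alone allows at most 3 counts or 0.268 CPM in a library, and reads lost before or in counting are not covered. A count of 0 thus does not show that Hsd3b7 RNA was absent, and its cause was not tested. Fgf15, the intestinal hormone that lowers Cyp7a1, had 0 counts in these livers.

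Among the regulators, Klb and Fgfr4 form the receptor for that hormone. Klb, the co-receptor, had 17.6, 23.5 and 14.5 CPM in LFG, 29.0, 39.6 and 28.8 CPM in REG, and 27.3, 22.7 and 20.5 CPM in hADMSCs-Exo, so REG lay above both other groups in every library. Its log2 fold change was 0.82 for REG against LFG (0.25 to 1.39, edgeR's adjusted p = 0.353) and -0.47 for hADMSCs-Exo against REG (-0.87 to -0.06, adjusted p = 0.463). Fgfr4, its partner, differed by 0.24 (-0.54 to 1.01, adjusted p = 0.799) and -0.08 (-0.49 to 0.33, adjusted p = 0.897).

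Of 9 regulators tested between hADMSCs-Exo and REG, 4 had a positive and 5 a negative log2 fold change, with a median of -0.05, and the groups did not overlap for 3 (Hnf4a, Mafg and Klb), against 15.5% of all genes. Hnf4a, a master regulator of hepatocyte genes, had 494, 497 and 578 CPM in REG and 619, 768 and 726 CPM in hADMSCs-Exo, without overlap (log2 fold change 0.43, 0.08 to 0.78, edgeR's adjusted p = 0.431). Mafg, a repressor of bile acid synthesis genes that FXR induces, had 78.7, 80.8 and 80.5 CPM in REG and 123, 104 and 99.6 CPM in hADMSCs-Exo, again without overlap (0.44, 0.15 to 0.72, adjusted p = 0.407). Nr1i2 (PXR), a xenobiotic and bile acid sensor, had 77.8, 54.2 and 91.7 CPM in REG and 91.4, 132 and 135 CPM in hADMSCs-Exo, with 1 library of each group crossing (0.67, 0.14 to 1.20, adjusted p = 0.430). Nr5a2 differed by -0.21 (-0.63 to 0.21, adjusted p = 0.717). Of these 4 regulators, 0 passed the adjustment over all genes.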

How the data were processed

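Liver RNA of LFG, REG and hADMSCs-Exo, 3 libraries each, was analysed out of 12 samples. The authors extracted RNA with Trizol, made libraries with NEBNext Ultra and sequenced them on an Illumina NovaSeq. The deposited values were raw read counts per gene and FPKM, and the authors' FPKM differed by at most 9.19e-07 in relative terms from the counts divided by gene length and total. The gene length in bases was also deposited by the authors. Cutadapt 1.15, HISAT2 2.0.5, HTSeq 0.9.1, DESeq 1.30.0 and GRCm38 are named in the submitters' processing notes, and the strand setting is not given in the sources used here. Member positions were the same in GENCODE M21.

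For each comparison the counts of its 6 libraries were fitted by edgeR 4.0.16 (R 4.3.3), with the quasi-likelihood test (two-sided), TMM and the package's own low count filter, and p-values were adjusted by Benjamini-Hochberg over all genes tested. The procedure was tested on simulated data. Log2 CPM had a prior count of 2. Other settings tried were RLE size factors, DESeq2 1.42.0, limma 3.58.1 (voom with quality weights), a minimum of 1 count in all or of 10 counts per library, a joint fit of the 9 libraries, a block for the replicate number, and omission of each library. Promoters were read with pandas 2.3.3 in Python 3.11.15, and plots were drawn with matplotlib 3.10.9. Limits for counts of 0 cover counting error only.

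The members and all lists were chosen with earlier results of these data known, so they are no independent evidence of a direction. Named were all members, a fixed set of 12 further genes, the 3 further genes with the smallest p in each comparison, and Nr1d1, Dbp and Arntl of the clock genes. No library repeated another of its group (chi-square per gene of at least 27.0), and pairs across groups were not compared in this way. Libraries sharing a replicate number were compared by how their deviations from the group means correlated over genes. For hADMSCs-Exo with LFG the values were 0.101, 0.308 and 0.180, all over 0.1, which is the only ground for a pairing, and the block was fitted as an alternative. Deviations within a group sum to 0 for each gene, so these 3 values are not independent. LFG was sacrificed before the injections of the other groups began. With REG, hADMSCs-Exo gave 0.159, 0.00938 and 0.0336, and the pairs of REG with LFG gave 0.415, -0.202 and 0.305.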

Additional observations from a re-analysis of the deposited data

How the results depend on the processing

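Between hADMSCs-Exo and REG the count of members called stayed at 0 under every alternative run, with at most 3 members at an unadjusted p under 0.05. The latter count was 3 with DESeq2 (9.71% of all genes), with the replicate block (9.52%) and without hADMSCs-Exo 1 (10.1%). In one fit of all 9 libraries it was 0 (3.79%). For hADMSCs-Exo against LFG an unadjusted p under 0.05 was reached by 2 members with voom and quality weights (28.1% of all genes), and leaving out 1 library gave 0 to 2 members called and 0 to 4 at an unadjusted p under 0.05. For REG against LFG voom called 3 members and put 7 at an unadjusted p under 0.05 (10.3% and 42% of all genes), DESeq2 put 3 (14.1%), no filter on low counts 2 (9.46%) and one fit of all 9 libraries 2 (15.7%), and leaving out 1 library gave 0 to 3 called and 0 to 6 at an unadjusted p under 0.05. Among the fits that left out 1 library, the highest counts against LFG were those without LFG 3 (shares of all genes 28.5% and 37.3% at an unadjusted p under 0.05), and the same setting moved all genes called from 0 to 773 and 1391. Over all tested genes DESeq2 called 67, 60 and 240 genes, against 1, 0 and 0 by edgeR, and voom called 3, 1 and 1285.

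The replicate numbers of hADMSCs-Exo and LFG met the criterion for pairs by their correlations alone, and the reported values come from the fit without the block. With the replicate block 0 members were called in each comparison, and 3, 1 and 3 members (hADMSCs-Exo against REG, hADMSCs-Exo against LFG and REG against LFG) had an unadjusted p under 0.05, beside 9.52%, 5.72% and 8.61% of all genes. Under the block the log2 fold change against LFG turned to 0.031 for Cyp7b1 and 0.96 for Slco1a1 in hADMSCs-Exo, and to 0.76 for Slco1a1 in REG. No call of a member changed, and 1, 0 and 0 genes in all were called as without it.

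Of 523 log2 fold changes of named genes under the alternatives that kept every library, 507 kept their direction and side of the thresholds. With voom the values turned to 0.0097 (Nr1h4), -0.28 (Slco1a1) and -0.0031 (Atp8b1) for hADMSCs-Exo against REG, to 0.88 (Cyp7b1) and 2.74 (Slco1a1) for hADMSCs-Exo against LFG, and to 0.22 (Cyp7b1), 0.88 (Nr0b2) and 2.99 (Slco1a1) for REG against LFG. Slco1a1 between hADMSCs-Exo and REG also turned to -0.001 with RLE size factors and -0.0018 in one fit of all 9 libraries. The cause of these turns was not tested.

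Leaving out 1 library turned the sign for 39 of 450 values. For hADMSCs-Exo against REG the values ran over Cyp7a1 (-0.53 to 0.086), Nr1h4 (-0.15 to 0.099), Akr1d1 (-0.12 to 0.34), Slco1a1 (-0.997 to 0.55), Slco1b2 (-0.025 to 0.23), Fgfr4 (-0.20 to 0.094) and Atp8b1 (-0.049 to 0.27). Without a turn of sign, members ran over Cyp8b1 (0.077 to 0.92), Cyp27a1 (0.0082 to 0.30), Cyp7b1 (0.51 to 0.95), Slc27a5 (-0.44 to -0.048), Baat (0.016 to 0.20), Slc10a1 (-0.93 to -0.34), Abcb11 (-0.70 to -0.48) and Nr0b2 (0.35 to 1.09). For hADMSCs-Exo against LFG the turned values ran over Cyp7b1 (-2.57 to 1.25), Baat (-0.047 to 0.64), Cyp2c70 (-0.55 to 0.12), Slco1a1 (-2.75 to 3.80), Abcc2 (-0.24 to 0.16), Abcc4 (-1.71 to 0.79), Fgfr4 (-0.14 to 0.36), Nr5a2 (-0.27 to 0.070) and Hnf4a (-0.11 to 0.22). For REG against LFG they ran over Cyp7b1 (-3.32 to 0.54), Baat (-0.14 to 0.57), Abcb11 (-0.029 to 0.62), Nr0b2 (-0.66 to 0.62), Cyp2c70 (-0.15 to 0.48), Slco1a1 (-2.34 to 3.84), Abcc4 (-2.40 to 0.12), Fgfr4 (-0.044 to 0.48), Mafg (-0.19 to 0.34) and Nr1i2 (-0.57 to 0.21). The highest values of Cyp7b1, Baat, Abcb11 and Nr0b2 against LFG were those without LFG 3. Fits that left out a library had 2 in one group and took its spread as that of the rest. Of Hsd3b7 and Fgf15, at 0 counts in all 9 libraries, nothing can be said below 0.268 CPM by counting error alone. Reads lost before or in counting are not covered, so a count of 0 does not show that RNA was absent. Why they were at 0 was not tested.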

Other observations

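Cyp7b1 and Slco1a1, both far higher in LFG 3 than in any other library, are known to be higher in male than in female mouse liver, and other genes of that kind were looked up after these values were seen. Cyp4a12a, a fatty acid hydroxylase, had 8.64, 26.2 and 352 CPM in LFG, 4.81, 77.0 and 56.1 CPM in REG, and 102, 135 and 134 CPM in hADMSCs-Exo. Elovl3, a fatty acid elongase, had 1, 2 and 830 counts in LFG, 2, 47 and 25 counts in REG, and 56, 179 and 79 counts in hADMSCs-Exo. Mup20, a urinary protein, had 96.2, 244 and 4286 CPM in LFG, 94.9, 1372 and 649 CPM in REG, and 709, 948 and 2176 CPM in hADMSCs-Exo. In all 3 LFG 3 was the highest library, REG 1 was the lowest REG library and every hADMSCs-Exo library lay above LFG 1 and LFG 2. Males were used according to the study's methods. Every library had at least 140 counts of each of 4 Y-linked genes. Cyp4a12a and Mup20 have close relatives, and their values are uncertain where reads were divided among them. These genes were picked after their values were seen, so no test was made.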
